A study of Mus musculus with 2 samples.

Results

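The genes described here are the guanylate cyclases of photoreceptors, the calcium sensor proteins that act on them, recoverin and Rd3, in the retina of mice (Mus musculus) at postnatal day 12. They are 6 of the 21367 genes that could be named on the array: Gucy2e and Gucy2f encode the membrane cyclases, Guca1a and Guca1b their activating proteins, Rcvrn recoverin and Rd3 a cyclase-binding protein. A probe was taken for a gene when its transcript accession belonged to that gene in RefSeq, which gave 9 probes. Gucy2e had 3, Guca1b had 2 and the other genes 1 each, every probe was spotted once, and all 9 were well above background on both arrays.

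Total RNA of dissected retinas was hybridised with 1 dye to Agilent expression arrays. The series holds 1 array of the group labelled wild type and 1 of the group labelled Samd7 KO, and asks how the retinal profile differs without Samd7, a sterile alpha motif domain protein of photoreceptors. Strain, sex, number of animals and the deleted part of Samd7 are not given in the labels. With 1 array a group there is no test, no p-value and no spread between animals, so each difference below compares these 2 RNA samples.

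Light closes the cation channels of the photoreceptor outer segment by lowering cGMP, and calcium in the outer segment then falls. The membrane cyclases make cGMP again. Their activators Guca1a and Guca1b (also known as GCAP1 and GCAP2) are EF-hand proteins that stimulate the cyclases when calcium is low and restrain them when it is high. Recoverin belongs to the same neuronal calcium sensor family and, when bound to calcium, inhibits Grk1, the kinase that starts the shut-off of activated visual pigment. Rd3 binds the cyclases, is needed for them to reach the outer segment and blocks their activity on the way.

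Values are log2 processed signal minus the 75th percentile of the array's non-control spots, and differences are the knockout-labelled minus the wild-type-labelled array. Levels of different probes are not comparable, because each probe has its own brightness. The scanner software's own error of 10% to 11.9% a spot comes to 0.20 to 0.23 on a log2 difference. A smaller error, an SD of 0.049 at log2 signals of 0 or more, was seen between repeated spots of 1 probe on these arrays, and it was 0.086 from -2 to 0 and 0.187 from -4 to -2. Neither error includes variation between animals.

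The targeted gene goes against the label. Samd7's only named probe gave log2 signals of 4.68 on the wild-type-labelled and 6.47 on the knockout-labelled array, 3.44-fold higher on the latter, and whether the probe lies inside the deleted part is not known here. Every direction given here therefore rests on the labels. All 9 rod, 9 cone, 8 ON bipolar and 7 Müller glia markers were well above background on both arrays. So were 15267 of all 21367 named genes, 8 of 10 lens markers and 9 of 10 pigment epithelium markers. The count therefore cannot by itself identify the tissue.

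The 2 activating proteins differed in opposite directions. Guca1b was 2.52-fold lower on the knockout-labelled array by its brighter probe and 4.19-fold lower by the other. Guca1a was 1.30-fold higher by its only probe, 1.85 times the scanner error, so its direction is the less secure. The cyclase Gucy2f was 1.41-fold lower and recoverin 1.22-fold lower. Gucy2e (by its brightest probe) and Rd3 were near level, at -0.01 and -0.06 on the log2 scale. The other Gucy2e probes were lower, at -0.34 and -0.22.

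Guca1b was the only one of the 6 genes at least 2-fold apart. In all, 1.37% of the 15947 named genes above background on at least 1 array were at least 2-fold lower, and 1.57% were at least 2-fold higher. Of the 6, 5 were below 0, with a median difference of -0.17 and a range of -1.33 to 0.38. Among all 15267 genes above background on both arrays, 58.1% were below 0 and the median was -0.023. Gucy2e, at -0.01, took the other sign under scaling to the median (0.02), so 4 of the 6 were below 0 under that scaling. In whole retina, fewer cells of a type and less RNA per cell cannot be told apart.

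Of the cyclase genes, Gucy2e (known in mouse as GC-E, the counterpart of the human gene mutated in Leber congenital amaurosis) is found in rods and cones. Its probe A_55_P2176275 gave processed signals of 730 (wild-type-labelled) and 697 (knockout-labelled), or 0.35 and 0.33 on the log2 scale. The difference of -0.01 was smaller than the repeated-spot SD. Its probe A_55_P2176270 gave signals of 441 and 337, a difference of -0.34. The probe A_55_P2044074 gave signals of 289 and 240, a difference of -0.22. The brightest Gucy2e probe was thus level and the dimmer ones lower on the knockout-labelled array, by 1.64 and 1.05 times the scanner error. Both lower differences also exceeded the repeated-spot SD of 0.086 at their signals. The mean over the 3 was -0.19. The range of 0.32 between Gucy2e probes compares with a median range of 0.10 over the 4132 genes that had 2 or more probes measured on both, and 12.1% of those genes had as wide a range.

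Gucy2f (GC-F), the second photoreceptor cyclase, is X-linked. Its only probe gave signals of 435 and 297, or -0.40 and -0.90 on the log2 scale. The Gucy2f difference of -0.50 was 2.42 times the scanner error and more than 5 times the repeated-spot SD of 0.086. As a description, 2.76% of the 15267 genes had a difference at or below that of Gucy2f. The Gucy2f difference lay 0.48 below that of the brightest Gucy2e probe, with a scanner error of 0.28 on that gap; the lowest Gucy2e probe, at -0.34, was nearer to it.

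Transcription starts of the cyclases and of Guca1a are shown because these genes are photoreceptor genes with unlike differences, and because the homeodomain protein Crx, a main activator of photoreceptor genes, binds sites of the form TAATCC. Sequences are from RefSeq's GRCm38.p6 and cover the 250 bases before the annotated start, 5′ to 3′ on the strand of the gene, with TAATCC or its complement GGATTA in capitals. Both strands were searched, also for TGCTGA, a core of the sites of the rod factor Nrl. The windows lie at chr11:69237023-69237272 (Gucy2e), chrX:142196937-142197186 (Gucy2f) and chr17:47400607-47400856 (Guca1a), all on the minus strand.
Gucy2e: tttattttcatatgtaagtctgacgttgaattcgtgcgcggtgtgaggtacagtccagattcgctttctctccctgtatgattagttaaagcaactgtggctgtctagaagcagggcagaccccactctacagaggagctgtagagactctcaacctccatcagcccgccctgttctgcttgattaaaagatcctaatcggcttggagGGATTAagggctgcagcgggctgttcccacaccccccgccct
Gucy2f: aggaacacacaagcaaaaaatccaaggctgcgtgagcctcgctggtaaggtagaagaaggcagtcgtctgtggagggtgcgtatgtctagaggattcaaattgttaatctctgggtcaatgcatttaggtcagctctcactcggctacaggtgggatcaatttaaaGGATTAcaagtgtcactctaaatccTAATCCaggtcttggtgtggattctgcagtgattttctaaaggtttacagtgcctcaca
Guca1a: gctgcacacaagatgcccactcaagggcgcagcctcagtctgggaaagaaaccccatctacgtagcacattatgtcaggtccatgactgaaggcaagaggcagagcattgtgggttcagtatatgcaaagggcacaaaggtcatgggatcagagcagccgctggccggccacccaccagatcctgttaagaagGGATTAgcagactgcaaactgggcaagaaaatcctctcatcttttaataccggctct

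Each of the 3 windows held a match, 42 bases before the start in Gucy2e, 57 in Guca1a, and 84 and 59 in Gucy2f, which had 2. Of all 32851 windows of this length, 6.25% held a match and 0.295% held at least 2. Both Rd3 windows, not printed above, held no match to TAATCC, so the windows printed are only those with a match. The letters TGCTGA were in 0 of the 5 windows of these genes, and in 16.1% of all windows. Guca1b and Rcvrn were not among the promoters used here. A match describes the letters only, and Crx itself was at -0.03 between the arrays.

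Of the activating proteins, Guca1b was the lower on the knockout-labelled array, in both probes. Its brighter probe, A_51_P373890, gave processed signals of 2241 (wild-type-labelled) and 857 (knockout-labelled), or 1.96 and 0.63 on the log2 scale. The difference of -1.33 was 6.54 times the scanner error. Its other probe, A_55_P1963906, gave signals of 216 and 49.7, or -1.41 and -3.48, a difference of -2.07 that was 9.14 times the scanner error. Both Guca1b probes were therefore more than 2-fold lower on the knockout-labelled array, at 39.7% and 23.9% of the wild-type-labelled value.

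The size of the Guca1b difference depended on the probe more than it does for most genes. The Guca1b probes lay 0.73 apart, and only 2.27% of the genes with at least 2 probes had a range as wide. The dimmer probe's median pixel signal on the knockout-labelled array was only 2.67 times its local background, against 20 times for the brighter one. Under normexp background correction of the median signals with an offset of 50, followed by quantile scaling (called normexp below), the dimmer probe came to -1.14 and the brighter one to -1.25. Quantile scaling alone gave -2.06 and -1.34. The range over probes and corrections is thus from 2.20-fold to 4.19-fold lower, and no setting run brought either probe inside 2-fold.

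Few bright genes were as low as Guca1b. Of the 8728 genes above background on both arrays with a mean log2 signal of 0 or more, 0.218% were at least 2-fold lower and 0.928% at least 2-fold higher. Guca1b was among the 12 lowest of them.

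Guca1a, the other activator, went the other way. Its only probe gave signals of 9662 and 12101, or 4.07 and 4.45 on the log2 scale. The Guca1a difference of 0.38 was 1.85 times the scanner error and stayed between 0.38 and 0.41 under every scaling and background correction run. As a description, 3.86% of all genes on both arrays had a difference at or above that of Guca1a. The gap between Guca1a and Guca1b was 1.71 on the log2 scale, a 3.28-fold shift of their ratio, with a scanner error of 0.28.

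**Figure D1:**
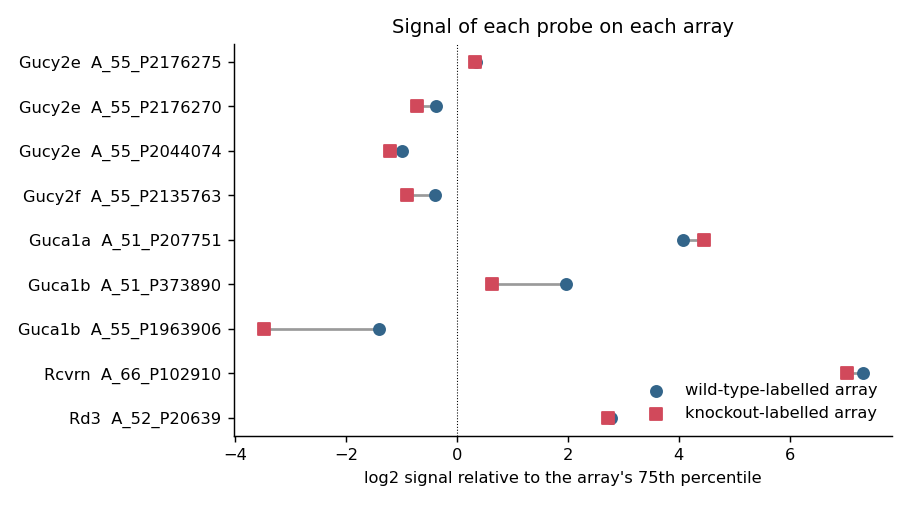
Log2 signal of the 9 probes on each array, relative to the array's 75th percentile (dotted line at 0). Circles are the wild-type-labelled and squares the knockout-labelled array, 1 spot each, and positions of different probes are not comparable. The Guca1b lines are the longest, from 1.96 to 0.63 and from -1.41 to -3.48, and the Guca1a square alone lies to the right of its circle.

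**Figure D2:**
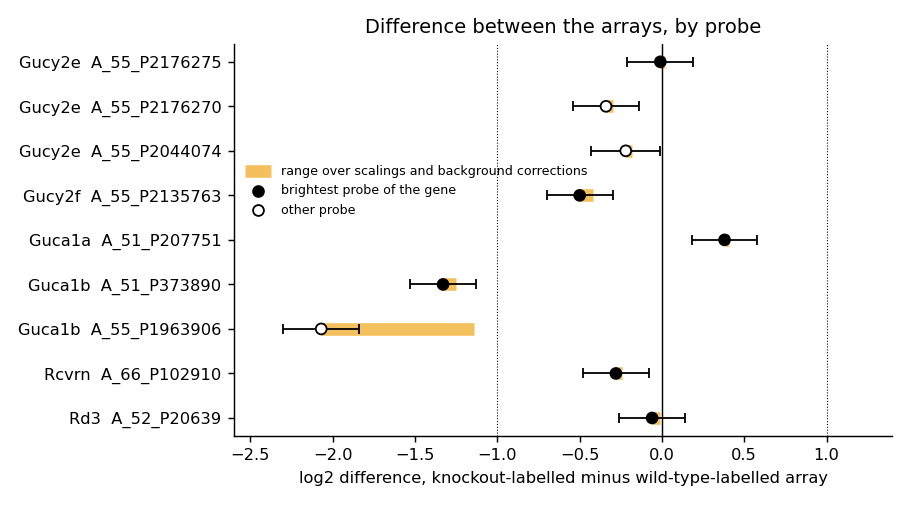
Log2 difference of each probe, knockout-labelled minus wild-type-labelled array, with the scanner software's error as bars and the range over scalings and background corrections as a broad band. Dotted lines mark 2-fold. Both Guca1b probes lie beyond 2-fold with their whole band, which for the dimmer probe runs from -2.07 to -1.14.

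Guca1a and Guca1b are adjacent protein-coding genes in RefSeq's gene order on chromosome 17. Mrps10, a mitochondrial ribosomal protein gene on the far side of Guca1b, was at -0.07, and Trerf1 beyond it at -0.02. On the far side of Guca1a, AI661453 was at -0.45 with a dim signal (-0.16 under normexp) and Taf8, a subunit of the general transcription factor TFIID, at -0.02. No neighbour at this locus was 2-fold apart.

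The same held around the cyclases, within 2 measured genes on each side. The neighbours of Gucy2e were Alox12b (-0.02), Aloxe3 (-0.10), Cntrob (-0.13) and Trappc1 (0.05). Those of Gucy2f were Irs4 (0.02), Col4a5 (0.18), Nxt2 (-0.02) and Kcne1l (-0.11). Next to Rd3 lay Slc30a1 (-0.07), Nek2 (-0.81, or -0.21 under normexp), Traf5 (0.03) and Rcor3 (0.09). Next to Rcvrn, Glp2r was at -0.02, Gas7 at -0.21, Dhrs7c at -0.44 (-0.11 under normexp) and the motile cilium gene Cfap52 at -2.55 (-0.99 under normexp). Cfap52 was the only 1 of these 20 neighbours at least 2-fold apart, and their median was -0.05.

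Recoverin had a bright probe, with signals of 91138 and 72204, or 7.31 and 7.03 on the log2 scale. Its median pixel signal was 2300 and 2210 times the local background on the arrays, and neither spot was saturated. The Rcvrn difference of -0.28 was 1.39 times the scanner error and more than 5 times the repeated-spot SD. Under the alternatives it lay between -0.28 and -0.24. Among the 8728 bright genes, 3.05% had a difference at or below that of Rcvrn.

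Rd3 gave signals of 3953 and 3648, or 2.78 and 2.72 on the log2 scale. The Rd3 difference of -0.06 was 0.309 times the scanner error and lay between -0.06 and -0.01 under the alternatives. The Rd3 difference was thus within the scanner's error, though slightly larger than the repeated-spot SD of 0.049.

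Spots near these probes on the slide were close to level. The median difference of the 135 to 253 well-measured spots within 10 rows and 10 columns of a probe lay between -0.06 and -0.002 for the 9 probes. Centred on those spots, Guca1b was at -1.32, Gucy2f at -0.47, Guca1a at 0.40 and Rcvrn at -0.26.

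**Figure D3:**
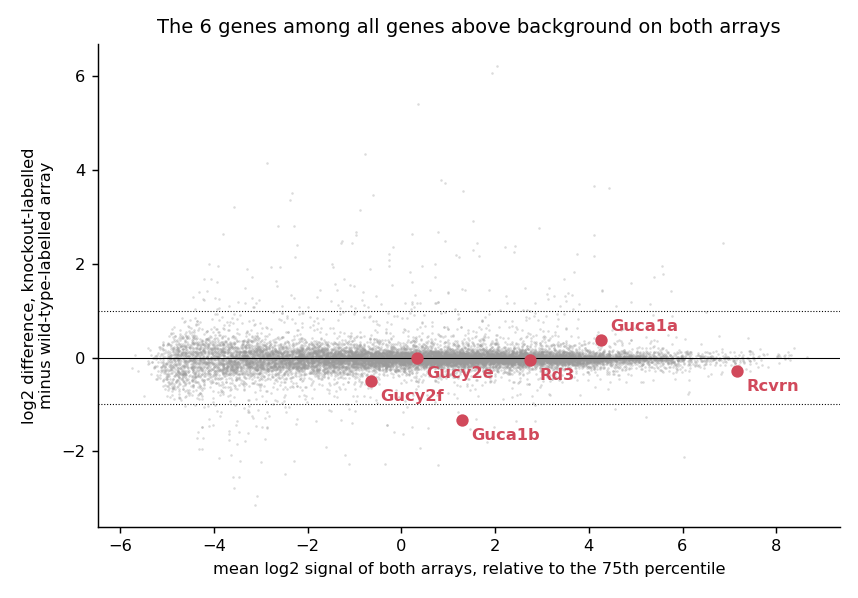
Log2 difference against mean log2 signal for the 15267 named genes above background on both arrays (grey), with the 6 genes in red by their brightest probe. Dotted lines mark 2-fold. Guca1b lies below the lower line and clear of the grey band, and Gucy2e and Rd3 lie inside it.

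The wider family of calcium sensors and cyclases was not set apart from all genes. Of 48 genes on 6 lists (other membrane cyclases, soluble guanylate cyclase, neuronal calcium sensors, other calcium-binding proteins, GTP supply, and cGMP effectors), 45 were above background, and none was 2-fold apart against 2.94% of all named genes in either direction. With 45 genes, a count of 0 is near that share. Their median difference was -0.02, the same as that of all genes at 2 decimals, and they ranged from -0.47 to 0.72.

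The 10 other neuronal calcium sensor genes spanned -0.05 to 0.14 by their brightest probes. The lowest of their other probes were at -0.23 (Hpca) and -0.11 (Kcnip4). Kcnip2, a potassium channel interacting protein, was at 0.14 and Hpcal1 at 0.10, while Kcnip4 was at -0.05 and Kcnip1 at -0.04. All 10 lay closer to 0 than Rcvrn, their photoreceptor relative, but so did most genes of any kind. The quartiles of all 15267 genes were -0.11 and 0.06, and 7.28% were at or below Rcvrn.

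The 4 measured membrane cyclases and natriuretic peptide receptors outside the photoreceptor pathway spanned 0.02 to 0.10, with Gucy2d, the cyclase of olfactory neurons in mouse, at 0.10 and Npr2 at 0.06. Npr3 was at 0.02 and Gucy2c, the guanylin receptor of the gut, at 0.04. All but Npr2 were dim, where the repeated-spot SD was 0.187 (0.327 below -4), wider than the span itself. Npr1 and Gucy2g were not well above background on either array. Soluble cyclase subunits, which respond to nitric oxide, spanned -0.14 to 0.03 by their brightest probes. Gucy1a1 was at 0.03, Gucy1a2 at -0.02 (0.19 and 0.23 by its other probes) and Gucy1b1 at -0.06. Gucy1b2 was at -0.14 with a dim signal (-0.01 under normexp).

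Among the other calcium-binding proteins, the extremes were 2 members of the Cabp family. Cabp4, a photoreceptor synapse protein that tunes the presynaptic calcium channel, had log2 signals of 2.53 and 2.06, a difference of -0.47. Cabp1 had log2 signals of 1.95 and 2.37, a difference of 0.42, and its other probe gave 0.75. Cabp2 was at -0.17.

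In the GTP supply, which feeds the cyclases, the nucleoside diphosphate kinase gene Nme1 was the highest gene of the 6 lists. Its log2 signals were 4.41 and 5.13, a difference of 0.72 or 1.65-fold, and its other probe gave 0.70. The closely related Nme2 was at 0.07 in its brightest probe, and cross-hybridisation between Nme1 and Nme2 was not tested. Impdh1, the main inosine monophosphate dehydrogenase of photoreceptors, was at -0.18, Gmps at -0.07 and Guk1, the guanylate kinase, at 0.03.

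Of the cGMP effectors and the phosphodiesterases outside the photoreceptor, Pde1c was at 0.36 (0.2 under normexp, and -0.12 by its other probe) and Pde9a at 0.08. Pde11a was at -0.31 with a dim signal (-0.05 under normexp) and Pde2a at -0.08.

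The listed photoreceptor genes spread more widely. The lists were chosen with earlier results of these data known, so the shares below are a description and not a test. Of 58 genes on 5 lists, 5 were at least 2-fold higher (8.62%, against 1.57% of all named genes) and 2 at least 2-fold lower (3.45%, against 1.37%). Among the 8728 bright genes those shares were 0.928% and 0.218%. The 11 rod phototransduction genes were all below 0, with a median of -0.30. The rod transducin Gnat1 was lowest, with log2 signals of 7.10 and 4.97 and a difference of -2.13, followed by the rod exchanger Slc24a1 at -0.51. Pde6a at -0.16 and Pde6b at -0.07 were nearest to 0. Grk1, the kinase that recoverin restrains, was at -0.31 (-0.22 by its other probe), close to Rcvrn at -0.28.

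The 11 cone phototransduction genes had a median of 0.32, and 4 were at least 2-fold higher. These were the channel subunits Cnga3 (2.91) and Cngb3 (2.14), the transducin subunit Gngt2 (2.45) and the opsin Opn1sw (2.09). At the other end lay Opn1mw (-0.17) and the cone exchanger Slc24a2 (-0.06). The cone arrestin Arr3 was at 0.32. None of the 6 genes described here came near the 4 high cone genes, and the highest of the 6 was Guca1a at 0.38.

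Phototransduction genes shared by rods and cones had a median of -0.16, with Rgs9bp, which anchors the GTPase accelerator of transducin, at -0.51 (-0.24 by its other probe), Pde6d at 0.03 and Slc24a4 at 0.12. Outer segment genes had a median of -0.21, from Prom1 (-0.47) and Tulp1 (-0.31) to Rom1 (0.08) and Impg1 (0.42). Transcription factors of photoreceptors had a median of -0.03, with Rxrg, a retinoid X receptor of cones, at 2.77 (1.23 by its other probe), Samd11 at 0.19, Thrb at -0.21 and the orphan receptor Esrrb at -1.09.

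**Figure D4:**
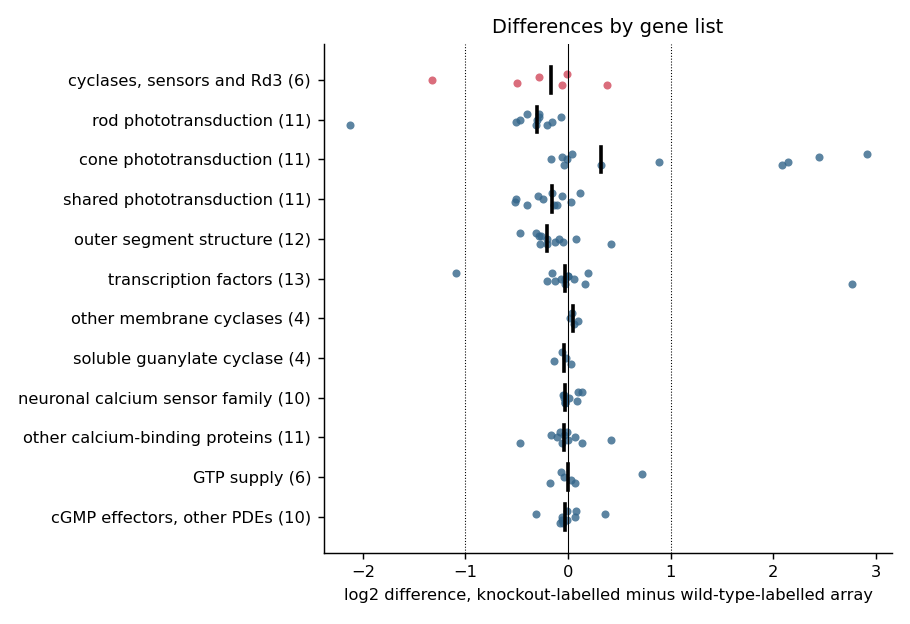
Log2 difference of the genes above background on both arrays, by list, with the number of genes in parentheses. Points are genes, black bars list medians and dotted lines 2-fold. Each gene is shown by its brightest probe. The 6 genes (top row, median -0.17) spread from -1.33 to 0.38, wider than the 10 other neuronal calcium sensors at -0.05 to 0.14. Other photoreceptor lists spread wider still: rod phototransduction from -2.13 to -0.07, cone phototransduction from -0.17 to 2.91 and transcription factors from -1.09 to 2.77.

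The listed genes whose difference lay closest to that of each of the 6 were found among 103 candidates. Likeness is the gap between single differences over 2 arrays. Rcvrn at -0.28 lay within 0.003 of the rod arrestin Sag, the outer segment transporter Abca4 and the rod transducin subunit Gngt1. Gucy2f lay within 0.02 of Slc24a1 and Rgs9bp. Rd3 lay nearest to Slc24a2, the cyclic nucleotide phosphodiesterase chaperone Aipl1 and Pvalb, and Gucy2e to Caln1, Pde1a and Pde6h. For Guca1a the nearest were Pde1c, Impg1 and Cabp1. Guca1b had no close neighbour: Esrrb was 0.246 away and Gnat1 0.795.

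Markers of several cell types also differed between the arrays, and their part in the differences above was not tested. Each sum below adds processed signals relative to the 75th percentile, given for the wild-type-labelled and then the knockout-labelled array, and is carried by its brightest probes. The 9 rod markers summed to 866 and 652, all 9 below 0 with a median difference of -0.28; without Gnat1 the sums were 728 and 620. The 9 cone markers summed to 70.3 and 102, with 6 above 0, 3 below 0 and a median of 0.32; without Rxrg the sums were 67.4 and 82.3. The cone members were not alike, with Opn1mw at -0.17, Pde6c at -0.04, Pde6h at -0.01 and Gnat2 at 0.04.

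The 8 ON bipolar markers summed to 144 and 202, or 111 and 113 without Gng13 (1.43), a G protein gamma subunit, with a median difference of 0.07. The 7 Müller glia markers summed to 205 and 229, or 155 and 161 without Apoe (0.44), with a median of 0.06. The 10 lens markers summed to 4.51 and 19.7, with 8 at least 2-fold higher and with Mip and Lim2 not well above background on the wild-type-labelled array. The 10 pigment epithelium markers summed to 29.8 and 22.0, with a median of -0.39 and with Lrat not well above background on either. Red blood cell markers summed to 23.0 and 29.3 with a median of 0.21, although Epb42 was at -2.15 with a dim signal (-0.63 under normexp). Endothelial markers summed to 25.4 and 24.8 and microglial ones to 11 and 9.65.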

How the data were processed

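The authors deposited 1 scanner file per array with linear intensity values, written by Agilent Feature Extraction 11.5.1.1 with protocol GE1_1105_Oct12 on a design built on mm9, per the file headers. The software's processed intensity is background-subtracted, and the files also give its error and a call of well above background. RNA was amplified and labelled with Cy3, per the labels' protocols. Of 59305 non-control spots, 60.3% were well above background on the wild-type-labelled and 60.9% on the knockout-labelled array, and none was saturated.

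Flagged spots (119 and 163) were left out and spots of a probe averaged. Probes were named by accession in a RefSeq table of GRCm38.p6: 28330 of 55677 had 1 symbol, none several, and 27347 are unnamed here. The brightest probe stood for a gene. A gene well above background on 1 array only got a bound, set at the lowest well-above-background signal of the dim array. Precision came from 320 probes with repeated spots, above background on both arrays. The number of arrays limits the precision.

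The threshold was 2-fold. Members and gene lists were chosen with earlier results of these data known. Genes were named by a rule: the 6 genes, Samd7, the 2 highest, 2 lowest and 2-fold genes of each list, the 3 nearest differences and the 2 nearest measured neighbours each side; others (Crx, Arr3, Grk1, Guk1) are named as examples chosen after their values were seen. Some genes of the lists are not reported here by themselves. The counting was tested on simulated data. Alternatives were median, quantile and loess scaling, the authors' value table (linear intensity deposited by the authors, at a constant ratio to the processed signal in each array by a rule that no source used here gives), normexp with an offset of 50 on median signals followed by quantile scaling, the mean over probes, filters and thresholds. Python 3.11.15, pandas 2.3.3, R 4.3.3 and limma 3.58.1 were used.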

Additional observations from a re-analysis of the deposited data

How the results depend on the processing

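Of 48 recomputed differences of the 6 genes, 45 moved by less than the repeated-spot SD. Some of the 48 could not move. The mean over probes repeats the value of a gene with 1 probe, and no spot of the 6 genes was flagged. Median scaling and the authors' value table shift all genes by 1 constant. The count is therefore not a measure of robustness. The mean over probes moved Gucy2e to -0.19 and Guca1b to -1.70, and normexp followed by quantile scaling moved Guca1b to -1.25, against -1.34 under quantile scaling alone. Gucy2e, at -0.01, changed sign under median scaling (0.02) by less than that SD. Guca1b was the only one of the 6 at least 2-fold apart under every scaling, background correction and filter and at 1.5-fold; at 4-fold the number was 0. Among the cyclase, sensor and cGMP lists 1 gene, Nme1, passed 1.5-fold. Against 469 named genes at least 2-fold apart (53.5% of them higher), normexp with quantile scaling gave 171 (73.1% higher, against 455 and 55.8% under quantile scaling alone), genes above background on both arrays only 254, no filter 1250, 1.5-fold 983 and 4-fold 137. Bounds drop out when both arrays are required; the cause of the other moves was not tested. Normexp used median signals, the spot brightness that the scanner files give; centring on nearby spots was chosen after seeing the data, and it moved no difference by over that SD. No paired analysis was possible because there is only 1 array in each group. Dim spots limit the second Guca1b probe most, whose signal on the knockout-labelled array was 2.67 times its local background.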
